A study of Homo sapiens with 12 samples.

Results

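The messenger RNAs of 8 proteins that carry out regulated cell death were followed in HK-2 cells, an immortalised line of human proximal tubular epithelial cells, across a control group and 3 drug groups. The genes were CASP1, CASP4, CASP8, CASP9, RIPK1, RIPK3, MLKL and GSDMD, taken by their symbols from a table of read counts for 58735 genes, and each was found there on 1 row. Each group held 3 samples, 12 in all, with the control cells given water and the others exposed for 48 h to iohexol at 75 mg I/mL, to cisplatin at 5 μM or to vancomycin at 4 mM. Iohexol is an iodinated contrast agent, cisplatin is a platinum compound that damages DNA and vancomycin is a glycopeptide antibiotic. The 3 drugs are each known to injure the kidney tubule, and the study set them side by side as models of drug-induced acute kidney injury (AKI). All samples came from 1 cell line, and since the labels do not say whether the replicates were separate cultures, the p-values below measure the spread between these samples, which may be technical.

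Regulated cell death follows several routes that share proteins. Caspases cut other proteins: caspase-8 starts apoptosis from death receptors at the cell surface, caspase-9 starts it from cytochrome c released by mitochondria, and caspase-1 and caspase-4 are inflammatory caspases that cut gasdermin D, whose freed end makes pores in the membrane (pyroptosis). In necroptosis RIPK1 engages RIPK3, RIPK3 phosphorylates MLKL and MLKL breaches the membrane, while active caspase-8 cuts RIPK1 and RIPK3 and so holds this route back. All of these proteins are controlled mainly by assembly, cleavage and phosphorylation, which counts of RNA do not show. Tubular cells are known to die by each of these routes in injured kidneys.

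Libraries held 14057282 to 18177109 counted reads. The cells carried 6 of 7 epithelial markers (KRT7, KRT8, KRT18, KRT19, EPCAM and PAX8) at 1 TPM (a count scaled for gene length and library size) or more in every group. Of 12 proximal tubule markers, only 4 reached 1 TPM in the control group (SLC5A2, ANPEP, GGT1 and GATM), SLC22A6 was at 0 counts in all 12 samples, and LRP2, which encodes megalin, was at 0 counts in the control group. Control-1 and Iohexol-3 stood apart from the other members of their groups in the balance between GC-rich and GC-poor genes, which is taken up below where it touches a result. Levels are given as CPM, counts scaled for library size with the trimmed mean of M values (TMM), changes as log2 fold changes with their standard error (SE) from the quasi-likelihood test of edgeR, and a gene is called where the p-value adjusted over all genes tested was under 0.05. A DEG is a called gene with a log2 fold change above 1 or below -1.

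With vancomycin, 6 of the 8 genes rose and none fell: CASP1, CASP4, CASP8, CASP9, RIPK1 and MLKL. Among all 15819 genes tested in this comparison 29% were called higher and 28.8% lower, and 18.5% were DEGs, against 2 of the 8 genes here (CASP1 and CASP4). The median log2 fold change of the 7 genes tested was 0.64, beside -0.01 over all genes tested. CASP1 passed the count filter here only through its reads in the vancomycin samples, where it was high. With at least 10 counts required in every sample CASP1 dropped out, and 5 of the 6 genes tested were called. With cisplatin, 1 of the 8 genes rose, CASP8, and none fell, where 29.2% of 15876 genes were called higher and 30.6% lower, and 16.3% were DEGs. The median of the 6 genes tested was 0.16 with cisplatin, beside 0.01 over all genes. With iohexol 0 of the 8 genes were called by edgeR, DESeq2 or limma-voom, 1 of the 6 tested had an unadjusted p-value under 0.05 (CASP8), and over 15657 genes 11.2% were called higher, 9.77% lower and 5.28% were DEGs. The 3 comparisons share the same 3 control samples. In RNA from whole cultures, fewer cells of a kind and less RNA per cell cannot be told apart.

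**Figure D1:**
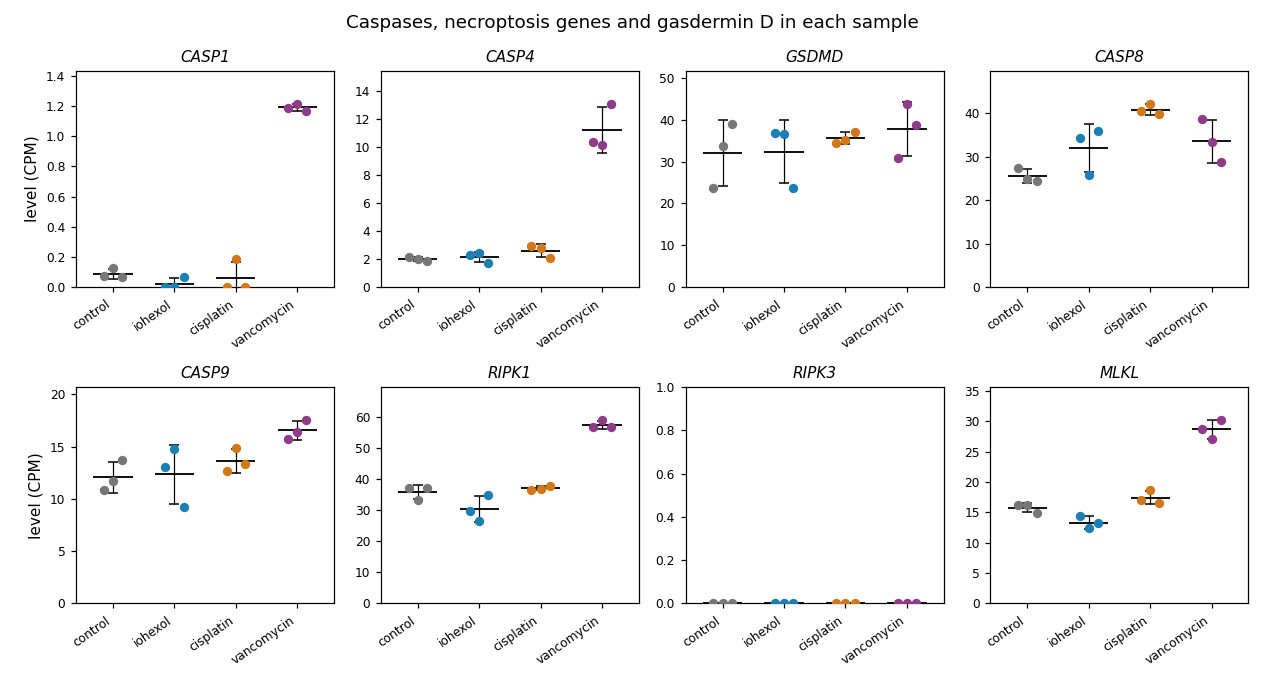
Level of each of the 8 genes (CPM, y axis from 0) in the 4 groups, with points for samples, horizontal lines for group means and bars for 1 SD (n = 3). The vancomycin samples stand above all others for CASP1, CASP4, CASP9, RIPK1 and MLKL, the cisplatin samples stand above the controls for CASP8, and RIPK3 lies at 0 throughout.

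CASP1 (chr11:105025443-105035250, minus strand, GRCh38) encodes caspase-1, the protease of the inflammasomes, which also matures interleukin-1β and interleukin-18. Its RNA was close to absent outside the vancomycin group. The control samples held 1, 2 and 1 reads, the iohexol samples 0, 0 and 1, and the cisplatin samples 0, 3 and 0. The vancomycin samples held 19, 18 and 19 reads, or 1.19, 1.22 and 1.17 CPM. All 3 vancomycin samples therefore lay above every other sample, and the counts were nearly the same in each. The fitted log2 fold change against control was 3.59 (SE 0.61, adjusted p = 2.3e-05), and because the control group held only 4 reads, the ratio of summed counts scaled for depth is also given, 13.4 with a 95% counting interval of 4.94 to 50.8. In direct contrasts of the drugs CASP1 was higher with vancomycin than with iohexol (adjusted p = 3.2e-05) and than with cisplatin (adjusted p = 5.2e-05). CASP1 passed the filter of the fit behind these contrasts only through the vancomycin samples, so they add no separate support for its rise. Iohexol and cisplatin held too few reads to pass the filter. With the filter lifted CASP1 was not called with either drug (adjusted p = 0.62 and 0.83 by edgeR). Even with vancomycin the level was 1.01 ± 0.03 TPM (SD, n = 3). Of the 31-base stretches of its transcripts 8.93% also occur in another gene, mostly CARD16, a decoy gene of the same cluster, and CARD16 was at 0 counts in all samples.

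CASP4 (chr11:104942866-104969436, minus strand) lies in the same cluster and encodes caspase-4, which binds bacterial lipopolysaccharide inside the cell and cuts gasdermin D directly. The control samples were at 2.18, 2.01 and 1.91 CPM, the iohexol samples at 2.28, 2.43 and 1.74, and the cisplatin samples at 2.97, 2.83 and 2.07. The vancomycin samples were at 10.4, 10.2 and 13.1 CPM, more than any other sample by a wide margin. CASP4 rose 5.37-fold with vancomycin (log2 fold change 2.42, SE 0.20, adjusted p = 3.7e-10), with a 95% interval of 2.01 to 2.84 on the log2 scale. It was also higher with vancomycin than with cisplatin (log2 difference 2.10, SE 0.19, adjusted p = 1.0e-08) and than with iohexol (2.38, SE 0.20, adjusted p = 4.5e-09). With cisplatin the change was 0.37 (SE 0.26, adjusted p = 0.23) and the groups overlapped, since Cisplatin-3 lay among the controls. The other genes of the cluster, CASP5, CASP12, CARD16, CARD17 and CARD18, were at 0 counts in all 12 samples.

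GSDMD (chr8:143553207-143563062, plus strand) encodes gasdermin D, the pore-forming substrate of both inflammatory caspases. It was abundant in all groups and not called with any drug. The control samples were at 23.6, 33.7 and 39.1 CPM, the iohexol samples at 36.8, 36.6 and 23.8, the cisplatin samples at 34.5, 35.3 and 37.1, and the vancomycin samples at 30.97, 43.8 and 38.9. The groups overlapped in every comparison. The log2 fold change was 0.03 with iohexol (95% interval -0.40 to 0.46), 0.14 with cisplatin (-0.12 to 0.41) and 0.19 with vancomycin (-0.11 to 0.49). Changes of a size within these intervals are not excluded. Without Control-3 the cisplatin value was 0.29 (adjusted p = 0.043).

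The spread of GSDMD within groups moved with the GC balance of the libraries. Its longest transcript holds 64.8% GC, more than that of 95.6% of protein-coding genes with at least 15 reads in all. GC shares here are those of the longest transcript of each gene. Over 17066 genes, the median deviation from the group mean of the GC-richest quintile minus that of the GC-poorest quintile was -0.279 in Control-1 and -0.411 in Iohexol-3 on the log2 scale, and -0.125 to 0.21 in the other 10 libraries. The deviation of GSDMD from its group mean was -0.413 in Control-1 and -0.415 in Iohexol-3, the lowest of the 12 libraries. CASP9, at 52.8% GC, was likewise lowest in these libraries, at -0.148 and -0.39. CASP8 and RIPK1 went the other way there, at 0.102 and 0.053 in Control-1 and at 0.183 and 0.203 in Iohexol-3, and MLKL deviated by 0.0401 and -0.00633. CASP4, at only 38.3% GC, was at 0.0964 in Control-1 but at -0.275 in Iohexol-3. The part of this balance in the levels of these genes was not tested.

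**Figure D2:**
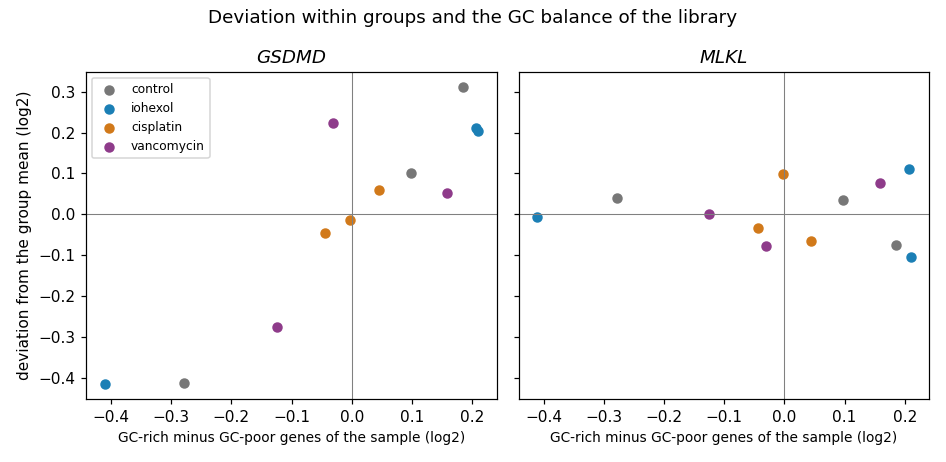
Deviation of GSDMD (left) and MLKL (right) from their group means (log2, y axis) against the GC balance of each library, the median deviation of GC-rich minus that of GC-poor genes (log2, x axis), for 12 libraries coloured by group. Control-1 and Iohexol-3 lie farthest left, where GSDMD is at -0.413 and -0.415, while MLKL lies near 0.

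CASP8 (chr2:201233443-201287711, plus strand) encodes caspase-8, and it was the gene that cisplatin raised. The control samples were at 27.4, 24.8 and 24.5 CPM and the cisplatin samples at 40.5, 42.2 and 39.9, with no overlap between the groups. The iohexol samples were at 34.2, 25.8 and 36.0 CPM and the vancomycin samples at 38.7, 33.4 and 28.7. Iohexol-2 fell among the controls, and the vancomycin samples all lay above the controls but spread widely. CASP8 rose 1.60-fold with cisplatin (log2 fold change 0.67, SE 0.09, adjusted p = 3.7e-06) and 1.28-fold with vancomycin (0.35, SE 0.12, adjusted p = 0.016). The call with vancomycin was lost without Control-2 (0.32, adjusted p = 0.062), without Control-3 (0.31, adjusted p = 0.062) and without Vancomycin-1 (0.24, adjusted p = 0.12). With iohexol the change was 0.34 (SE 0.14, adjusted p = 0.099), and without Iohexol-2 it was called at 0.47 (adjusted p = 0.037). Cisplatin exceeded iohexol by 0.35 (SE 0.12, adjusted p = 0.020), and vancomycin and cisplatin differed by -0.28 (95% interval -0.54 to -0.03, adjusted p = 0.050, just above the threshold), a difference that was called under 3 of 4 alternatives.

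CASP9 (chr1:15490832-15526534, minus strand) encodes caspase-9, the protease of the apoptosome. The control samples were at 10.8, 11.7 and 13.7 CPM and the vancomycin samples at 15.7, 16.4 and 17.6, without overlap. The iohexol samples were at 13.1, 14.8 and 9.22 CPM and the cisplatin samples at 12.7, 14.9 and 13.4, both overlapping the controls. CASP9 rose 1.33-fold with vancomycin (log2 fold change 0.41, SE 0.14, adjusted p = 0.012), a call lost without Control-2 (0.38, adjusted p = 0.051). The change was 0.17 with cisplatin (SE 0.13, adjusted p = 0.24) and 0.05 with iohexol (SE 0.18, adjusted p = 0.86). Against iohexol the vancomycin level was higher by 0.42 (SE 0.15, adjusted p = 0.022), a call lost when libraries were scaled by total count only (0.21, adjusted p = 0.24).

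RIPK1 (chr6:3063991-3115187, plus strand) encodes the kinase and scaffold that joins death receptors to survival signalling, apoptosis or necroptosis. The control samples were at 37.1, 33.2 and 37.2 CPM, the iohexol samples at 29.9, 26.5 and 34.8, and the cisplatin samples at 36.4, 36.9 and 37.7. The vancomycin samples were at 56.7, 59.0 and 56.7 CPM, tightly grouped and above every other sample. RIPK1 rose 1.56-fold with vancomycin (log2 fold change 0.64, SE 0.10, adjusted p = 9.4e-06). It was higher with vancomycin than with cisplatin (0.63, SE 0.10, adjusted p = 1.2e-05) and than with iohexol (0.92, SE 0.10, adjusted p = 1.6e-07). With cisplatin the change was 0.05 (95% interval -0.13 to 0.22, adjusted p = 0.66). With iohexol it was -0.22 (SE 0.12, adjusted p = 0.22), and it was called lower without Iohexol-3 (-0.33, adjusted p = 0.040). Cisplatin exceeded iohexol by 0.29 (SE 0.10, adjusted p = 0.021).

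RIPK3 (chr14:24336021-24340045, minus strand) encodes the kinase that phosphorylates MLKL. Not a read was assigned to it in any of the 12 samples. A count of 0 allows up to 3 reads, which is 0.18 to 0.24 TPM depending on the library and covers counting error only. A gene annotated across it on the same strand, AL096870.1, shares 9.69% of its 31-base stretches and was also at 0 counts. Reads that fall on both genes may have been left out of the counts, so the limit holds only for reads that can be assigned to RIPK3 alone. ZBP1, the sensor that can engage RIPK3 without RIPK1, held 0 reads in the control and cisplatin groups, 4 in the iohexol group and 1 in the vancomycin group.

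MLKL (chr16:74671855-74700960, minus strand) encodes the protein that breaches the membrane in necroptosis. The control samples were at 16.2, 16.1 and 14.9 CPM, the iohexol samples at 14.4, 12.3 and 13.2, the cisplatin samples at 17.0, 18.6 and 16.6, and the vancomycin samples at 28.7, 27.1 and 30.2. Each group was separate from the controls, below them with iohexol and above them with cisplatin and vancomycin. Only the vancomycin difference passed the test, a 1.77-fold rise (log2 fold change 0.82, SE 0.12, adjusted p = 2.1e-06), while the values were 0.14 with cisplatin (SE 0.11, adjusted p = 0.27) and -0.22 with iohexol (SE 0.13, adjusted p = 0.24). Groups without overlap were common among all genes tested, at 37.9% with iohexol, 65.1% with cisplatin and 63.2% with vancomycin. MLKL was higher with vancomycin than with cisplatin by 0.72 (SE 0.11, adjusted p = 5.6e-06) and than with iohexol by 1.11 (SE 0.11, adjusted p = 3.7e-08). Cisplatin exceeded iohexol by 0.39 (SE 0.11, adjusted p = 0.0059).

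**Figure D3:**
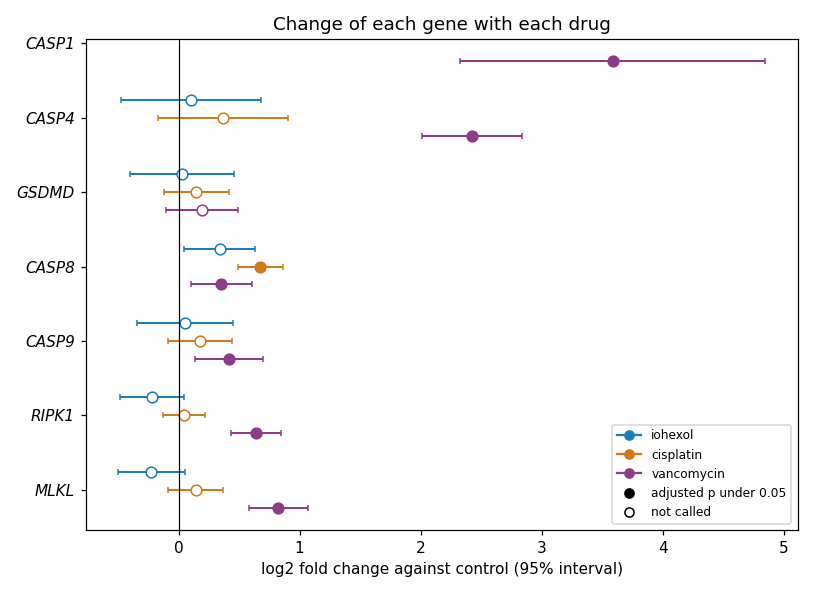
Log2 fold change against control (x axis) with its 95% interval for the 7 genes with a testable drug, coloured by drug, filled where the adjusted p-value was under 0.05. With vancomycin 6 of 7 points are filled, from 0.35 for CASP8 to 3.59 for CASP1, with cisplatin the CASP8 point is filled at 0.67, and with iohexol every point is open.

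In the contrasts of drugs, which rest on 1 fit of all 12 samples and 17073 genes, 3 of the 8 genes were higher with cisplatin than with iohexol (CASP8, RIPK1 and MLKL, where 54% of all genes were called in either direction). Between vancomycin and iohexol 5 were higher with vancomycin (CASP1, CASP4, CASP9, RIPK1 and MLKL), with 56.6% of all genes called. Between vancomycin and cisplatin 4 were higher with vancomycin (CASP1, CASP4, RIPK1 and MLKL), with 64.7% of all genes called. CASP1 entered this fit only through its reads in the vancomycin samples.

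The scale mattered most for cisplatin. The 3 cisplatin libraries had TMM factors of 1.12 to 1.13, and scaling by total count only moved the median of all genes by 0.23 on the log2 scale with this drug. On that scale 5 of the 8 genes were called higher with cisplatin, CASP8 together with GSDMD (0.36), CASP9 (0.39), RIPK1 (0.26) and MLKL (0.36), to be read beside that shift. Of all genes called with cisplatin, 68.1% were then higher, instead of 48.9%. With iohexol the same step took the share of higher calls from 53.4% to 67.5% and CASP8 was called (0.41, adjusted p = 0.049). With vancomycin the share went from 50.2% to 43.6% and CASP8 was no longer called (0.27, adjusted p = 0.056).

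Compared per length, as TPM, the genes fell into a wide range. In the control group RIPK1 was highest at 31.1 ± 2.4 TPM (SD, n = 3), followed by GSDMD at 23.1 ± 5.9, CASP8 at 12.9 ± 0.80, MLKL at 10.1 ± 0.30, CASP9 at 8.40 ± 1.2, CASP4 at 1.03 ± 0.06 and CASP1 at 0.0868 ± 0.031. RIPK1 and GSDMD overlapped between samples, since the highest GSDMD value (28.5 TPM) exceeded the lowest RIPK1 value (28.3), and each later neighbour in the order was separate from the one before. With vancomycin the order of the means began with RIPK1 at 42.6 ± 0.76 TPM and GSDMD at 23.2 ± 3.2, and MLKL at 15.8 ± 1.3 came before CASP8 at 14.6 ± 2.5, although these last ranges overlapped. With cisplatin CASP8 reached 22.5 ± 0.61 TPM, against 27.8 ± 0.92 for GSDMD and 34.9 ± 0.44 for RIPK1.

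Across the 12 samples CASP4, RIPK1 and MLKL had like patterns. The Pearson correlation of log2 CPM was 0.95 between RIPK1 and MLKL, 0.95 between CASP4 and MLKL and 0.89 between CASP4 and RIPK1, while CASP8 reached at most 0.22 with any other gene of the 6 with at least 1 CPM. These values describe 12 samples that fall into 4 groups and share their libraries, and they are given without a test. Among 12668 genes, the patterns most like RIPK1 were those of NQO1 (r = 0.98), GCLM (0.98) and KLF9 (0.98). NQO1 encodes a quinone reductase and GCLM a subunit of the enzyme that starts glutathione synthesis. MLKL was most like RPL41, ROMO1 and NQO1 (0.99, 0.99 and 0.98), and CASP4 was most like P2RX4, CRABP2 and ALDOA (each 0.99). CASP8 was nearest to IPMK (0.95), EIF5 (0.93) and FAM171B (0.92), CASP9 to RTN2, EMD and RAB5C (each 0.94), and GSDMD to MARK4, ZNF3 and GRINA (0.94, 0.94 and 0.93).

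Promoter windows, from 250 bases before to 50 after an annotated start of transcription, were taken from RefSeq (GRCh38.p14). Part of the genome was left out of this set by rule. GSDMD lies in that part, so its promoter was not examined. The set held windows for 5 of the 8 genes: CASP4, CASP8, CASP9, RIPK1 and MLKL. The windows of CASP8, called with 2 drugs, are shown with that of CASP4. The CASP4 window was added after its values were seen, because CASP4 had the clearest change among genes with a window. Capitals mark matches to any of 5 motifs on either strand: GAAANNGAA, the core bound by interferon regulatory factors, found in 8.11% of 35116 windows of the same length; GGANTTTCC, a site of NF-κB, in 1.64%; TGACTCA, bound by AP-1, in 4.95%; CACGTG, the E-box, in 7.26%; and TGACNNNGC, the core of the antioxidant response element, in 13.3%, which was added after the likeness of RIPK1 to NQO1 and GCLM had been seen.
CASP4, chr11:104968525-104968824, minus strand: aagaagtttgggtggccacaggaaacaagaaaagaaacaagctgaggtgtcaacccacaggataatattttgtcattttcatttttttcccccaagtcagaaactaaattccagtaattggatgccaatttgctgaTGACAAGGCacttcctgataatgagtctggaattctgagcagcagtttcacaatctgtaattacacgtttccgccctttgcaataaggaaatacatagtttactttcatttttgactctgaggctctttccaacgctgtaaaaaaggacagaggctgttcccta
CASP8 window 1, chr2:201233213-201233512, plus strand: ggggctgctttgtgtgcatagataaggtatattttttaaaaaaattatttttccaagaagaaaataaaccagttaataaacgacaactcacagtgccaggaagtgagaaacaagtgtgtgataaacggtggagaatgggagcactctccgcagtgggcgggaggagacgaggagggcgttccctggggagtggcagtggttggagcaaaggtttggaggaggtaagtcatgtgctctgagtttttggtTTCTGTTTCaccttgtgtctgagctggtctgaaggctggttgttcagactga
CASP8 window 2, chr2:201257785-201258084, plus strand: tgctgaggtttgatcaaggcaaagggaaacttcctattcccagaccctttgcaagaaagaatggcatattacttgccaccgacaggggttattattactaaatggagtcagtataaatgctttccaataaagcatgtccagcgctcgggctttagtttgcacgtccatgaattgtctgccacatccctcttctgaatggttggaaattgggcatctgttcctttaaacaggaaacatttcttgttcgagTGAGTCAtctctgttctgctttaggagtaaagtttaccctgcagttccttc
CASP8 window 3, chr2:201260286-201260585, plus strand: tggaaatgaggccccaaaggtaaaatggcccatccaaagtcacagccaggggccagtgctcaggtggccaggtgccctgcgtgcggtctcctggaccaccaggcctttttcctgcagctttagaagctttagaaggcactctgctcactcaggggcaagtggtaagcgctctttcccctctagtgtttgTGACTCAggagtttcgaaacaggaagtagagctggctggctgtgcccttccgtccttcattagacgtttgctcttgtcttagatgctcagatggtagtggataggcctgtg

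In the CASP4 window TGACAAGGC, a match to the antioxidant response core, began 114 bases before the start. The first CASP8 window held TTCTGTTTC, the interferon regulatory factor core on the other strand, beginning 2 bases before the start, the second held TGAGTCA, the AP-1 site on the other strand, 1 base before the start, and the third held TGACTCA 61 bases before it. The RIPK1 windows 2 and 3, which overlap each other, held TTCGGTTTC, again the interferon regulatory factor core, 66 and 182 bases before their starts. No match lay in the first RIPK1 window or in the windows of CASP9 and MLKL. A match is a description of letters and not of binding, which was not measured here.

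The genes around these 8 were described through lists of 86 pathway genes in all. Of the 65 tested with vancomycin 24 were higher and 12 lower, of the 66 tested with cisplatin 27 were higher and 14 lower, and of the 65 tested with iohexol 5 were higher and 10 lower. In either direction 36 of 65, 41 of 66 and 15 of 65 were called, near the share over all genes tested, which was 57.9% with vancomycin, 59.8% with cisplatin and 21% with iohexol. Their median log2 fold changes were 0.15, 0.13 and -0.02, beside -0.01, 0.01 and 0.01 over all genes tested. Without Control-2 or Control-3 only 7 pathway genes were called with iohexol, and without Iohexol-3 23 were.

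**Figure D4:**
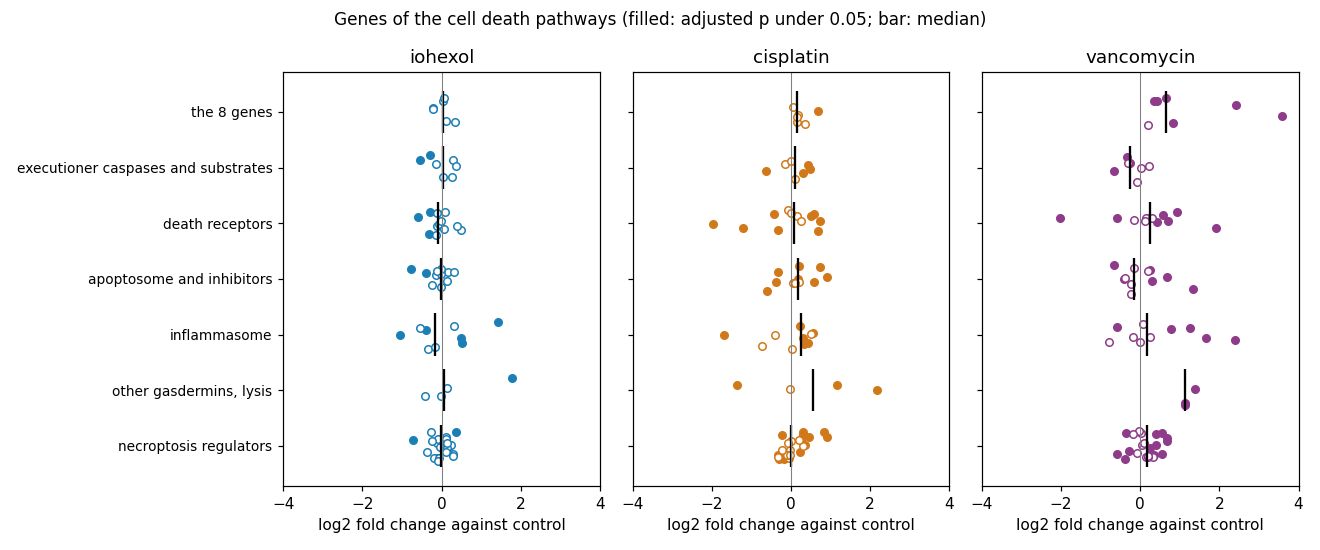
Log2 fold change against control (x axis) of every tested gene of 6 pathway lists and of the 8 genes (7 of them tested with vancomycin and 6 with the other drugs), by drug, with filled points for adjusted p under 0.05 and vertical bars for list medians. The 7 tested of the 8 genes lie right of 0 with vancomycin, with a median of 0.64, the other gasdermins and lysis genes lie at a median of 1.14 there, and the lists centre near 0 with iohexol. Among these 7 genes, CASP1 passed the filter only through its vancomycin reads.

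Upstream and downstream of caspase-1 and caspase-4, the inflammasome list held 21 genes, of which 9 or 10 were tested per drug. With vancomycin 4 rose and 1 fell, with cisplatin 5 rose and 1 fell, and with iohexol 3 rose and 2 fell, beside 57.9%, 59.8% and 21% of all genes called in either direction. The guanylate-binding proteins GBP1 and GBP2, which coat bacteria and draw caspase-4 to lipopolysaccharide, rose with vancomycin by 1.24 (SE 0.12, adjusted p = 2.6e-09) and 2.40 (SE 0.15, adjusted p = 1.3e-12). GBP2 also rose with iohexol (1.43, SE 0.16, adjusted p = 6.5e-05), where its levels of 14.3 to 14.6 CPM compared with 4.80 to 6.46 in the controls. PYCARD, the adaptor ASC that links sensors to caspase-1, rose by 0.78 with vancomycin (adjusted p = 0.00062) and fell with cisplatin to 1.45 to 2.07 CPM from 4.89 to 6.77 (log2 fold change -1.69, SE 0.23, adjusted p = 6.9e-06). The sensor NLRP1 fell with iohexol (-1.06, SE 0.16, adjusted p = 0.00055) and rose with cisplatin (0.34, SE 0.11, adjusted p = 0.011).

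IL18, the cytokine precursor cut by caspase-1, was abundant and fell with vancomycin, where CASP1 rose. It fell by 0.59 on the log2 scale (SE 0.12, adjusted p = 0.00024), from 47.7 to 62.5 CPM in the controls to 33.3 to 45.2. It rose with cisplatin by 0.42 (adjusted p = 0.00047) and with iohexol by 0.52 (adjusted p = 0.016), the latter a call lost without Control-2 (adjusted p = 0.067) or without Control-3 (adjusted p = 0.088). IL1B held 5 reads in the control group, 11 with iohexol, 10 with cisplatin and 16 with vancomycin. The sensor NLRP3 held 3, 3, 0 and 6 reads in the same order. For IL1B with vancomycin the ratio of summed counts scaled for depth was 3.06 (95% counting interval 1.07 to 10.7), an interval that leaves out the spread between samples, and the intervals of the other ratios of both genes include 1.

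Of 10 other gasdermin and lysis genes 3 were tested with vancomycin and all of these rose (GSDMB, GSDME and NINJ1), while of 4 tested 2 rose and 1 fell with cisplatin and 1 rose with iohexol, beside 57.9%, 59.8% and 21% of all genes called. GSDME, which encodes gasdermin E, was at 50.5 to 54.8 CPM in the controls, 116.8 to 122.5 with vancomycin and 18.9 to 22.4 with cisplatin. It thus rose with vancomycin by 1.12 (SE 0.09, adjusted p = 1.9e-10) and fell with cisplatin by 1.35 on the log2 scale (SE 0.09, adjusted p = 6.8e-10). NINJ1, which ruptures the membrane of dying cells, rose with vancomycin by 1.14 (SE 0.10, adjusted p = 5.1e-10) and was at -0.03 with cisplatin (adjusted p = 0.71). GSDMB rose with cisplatin by 1.15 (SE 0.13, adjusted p = 5.7e-07) and with vancomycin by 1.39 (SE 0.15, adjusted p = 2.7e-08). With iohexol, none of these 3 genes was called, their adjusted p-values being 0.11 for GSDMB, 0.89 for GSDME and 0.51 for NINJ1. PJVK, a distant member of the gasdermin family, held 7, 6 and 2 reads in the controls, 24, 15 and 13 with iohexol, 25, 25 and 27 with cisplatin and 13, 8 and 16 with vancomycin. It rose with cisplatin (2.18, SE 0.44, adjusted p = 0.00034) and with iohexol (1.78, SE 0.51, adjusted p = 0.028), the latter a call lost without Control-2, Control-3, Iohexol-1 or Iohexol-2 (adjusted p = 0.083, 0.11, 0.13 and 0.054). With these drugs PJVK passed the count filter only through its reads in the drug samples, where it was high. It did not pass with vancomycin. PJVK is the 1 gene of this list counted above as risen with iohexol, and it is among the 2 counted with cisplatin.

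**Figure D5:**
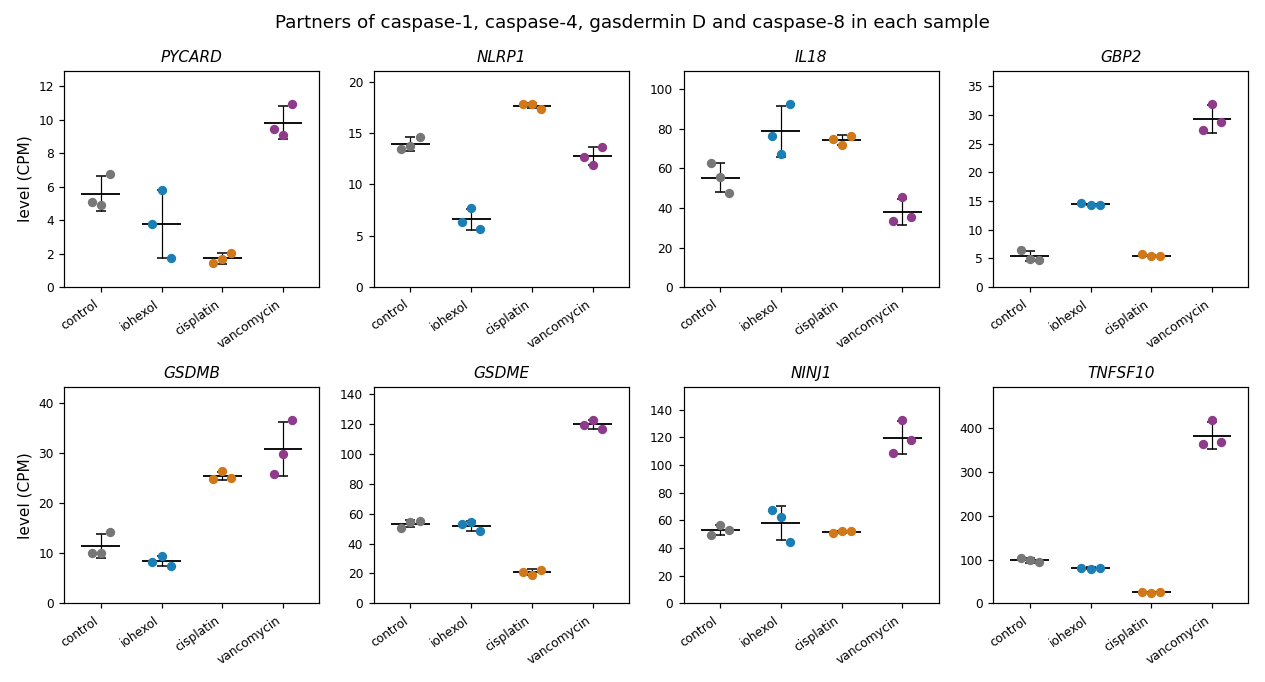
Level (CPM, y axis from 0) of 8 partner genes, chosen after their values were seen, in the 4 groups, with points for samples, lines for means and bars for 1 SD (n = 3). GSDME and TNFSF10 rise with vancomycin and fall with cisplatin, GBP2 rises with vancomycin and iohexol, and IL18 lies lowest with vancomycin.

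Around caspase-8, 12 of 14 death receptor genes were tested, and 5 rose and 2 fell with vancomycin, 4 rose and 4 fell with cisplatin, and 0 rose and 3 fell with iohexol. Over all genes 57.9%, 59.8% and 21% were called, so that these counts lie near the background. TNFSF10, which encodes the ligand TRAIL, was at 93.6 to 104.5 CPM in the controls, 362.6 to 417.5 with vancomycin and 24.5 to 26.5 with cisplatin (log2 fold changes 1.91 and -1.96, SE 0.09 and 0.08, adjusted p = 2.0e-14 and 9.8e-13). TNFRSF10B, a TRAIL receptor, rose with vancomycin by 0.43 (adjusted p = 0.00012) and fell with cisplatin by 0.42 on the log2 scale (adjusted p = 1.3e-05). FAS, another death receptor, went the opposite way, up by 0.75 with cisplatin (adjusted p = 2.6e-06) and at -0.58 with vancomycin (adjusted p = 0.00020). The adaptor FADD, which brings caspase-8 to receptors, rose with vancomycin (0.71, adjusted p = 0.00012) and was at 0.15 with cisplatin (adjusted p = 0.38). CFLAR, whose product restrains caspase-8, was lower with cisplatin (-0.32, adjusted p = 0.00039), a call that was lost when libraries were scaled by total count only (-0.10, adjusted p = 0.20).

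Around caspase-9, all 11 apoptosome and inhibitor genes were tested, with 4 higher and 2 lower with vancomycin, 5 higher and 3 lower with cisplatin, and 0 higher and 2 lower with iohexol (57.9%, 59.8% and 21% of all genes called). APAF1, the scaffold of the apoptosome, was lower with vancomycin (-0.42, adjusted p = 0.0011) and with cisplatin (-0.34, adjusted p = 0.0031, and -0.12 with adjusted p = 0.25 on the total count scale). CYCS, which encodes cytochrome c, rose with cisplatin (0.59, SE 0.07, adjusted p = 7.8e-07). HTRA2, a mitochondrial protease that relieves caspase inhibition, rose with vancomycin by 1.33 (SE 0.11, adjusted p = 6.2e-10), and so did the inhibitors BIRC3 (0.68, adjusted p = 1.2e-06) and XIAP (0.31, adjusted p = 0.0042). Of 7 executioner caspase and substrate genes, 0 rose and 3 fell with vancomycin, 3 rose and 1 fell with cisplatin, and 0 rose and 2 fell with iohexol, against the same shares of all genes. Those that fell with vancomycin were CASP2 (-0.33), PARP1 (-0.66) and DFFA (-0.26), the last a call lost without Control-2 (adjusted p = 0.11) or without Vancomycin-1 (adjusted p = 0.050). CASP6, an executioner caspase, was not called with any drug (adjusted p = 0.11 with iohexol, 0.19 with cisplatin and 0.63 with vancomycin).

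Around RIPK1 and MLKL, 22 of 23 necroptosis regulators were tested, and 8 rose and 4 fell with vancomycin, 8 rose and 4 fell with cisplatin, and 1 rose and 1 fell with iohexol, again near or below the 57.9%, 59.8% and 21% called among all genes. TNFAIP3, which encodes the ubiquitin-editing enzyme A20, rose with cisplatin by 0.92 (SE 0.06, adjusted p = 1.5e-09) and with vancomycin by 0.54 (SE 0.09, adjusted p = 1.9e-05). CYLD, a deubiquitinase that acts on RIPK1, rose with cisplatin (0.45, adjusted p = 0.00020) and vancomycin (0.56, adjusted p = 5.3e-05). TICAM1, the adaptor TRIF that can bind RIPK1 and RIPK3, rose with cisplatin by 0.85 (SE 0.09, adjusted p = 2.0e-07). RIPK2, a related kinase of another pathway, fell with iohexol by 0.71 on the log2 scale (SE 0.10, adjusted p = 0.00031).

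Since inflammatory caspases are abundant in blood cells, the markers of other cells were summed. Of 10 immune markers, CD14 and CSF1R reached 1 TPM in every group and ITGAM with vancomycin also, while PTPRC, which marks all leukocytes, held at most 5 reads in a sample. The summed level of the 10 markers ranged from 11.0 to 13.6 TPM among control samples and from 11.2 to 16.3 among vancomycin samples. The ranges were 9.90 to 13.2 for iohexol and 8.65 to 9.43 for cisplatin. In the controls CSF1R made up most of this sum, at 8.91 to 10.8 TPM, and with vancomycin it was at 5.49 to 8.79 TPM. CD14 was at 1.08 to 1.97 TPM in the controls and 3.21 to 6.35 with vancomycin (31 to 59 reads), above the controls in each sample as CASP1 and CASP4 were. It was also above every control sample with iohexol (3.09 to 3.85 TPM) and with cisplatin (2.07 to 3.61 TPM), where CASP1 and CASP4 overlapped the controls. The summed 4 endothelial markers did not exceed 2.06 TPM in any sample. The summed 6 fibroblast markers were at 10.0 to 13.4 TPM in the control group and 14.7 to 17.0 with vancomycin. They were at 9.23 to 10.5 TPM with iohexol and highest with cisplatin, at 19.5 to 21.8. COL1A1 made up most of this sum, at 9.27 to 12.6 TPM in the controls and 13.05 to 13.86 with vancomycin. COL1A2 and PDGFRA were at 0 counts in both of these groups. The part of other cells in the rise of CASP1 and CASP4 was not tested.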

How the data were processed

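Poly(A) RNA was sequenced for 12 HK-2 samples. The authors deposited raw counts of reads per gene, without normalization. The submitters' processing notes name CASAVA 1.8, fastp, HISAT2 2.0.5, featureCounts 1.5.0-p3 and DESeq2 1.20.0. The annotation release and the strand setting of the counting are not given in the sources used here. The gene lengths and positions in the deposited file equal those of GENCODE on GRCh38 for the 8 genes. Without a strand setting, reads of RIPK1 and of its antisense neighbour AL031963.3 (83 reads in all, against 7512), and of CASP9 and CELA2B (17 against 2557), cannot be told apart.

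Groups came from the sample labels. Every drug had its own fit of 6 samples against the controls with edgeR 4.0.16 in R 4.3.3 (filterByExpr with a minimum count of 10 and a minimum total of 15, TMM factors, quasi-likelihood test, Benjamini-Hochberg adjustment over all genes tested). Contrasts of drugs came from 1 fit of all 12 samples. The script was tested on simulated data. All 8 genes are named, and from the pathway lists 20 fixed genes together with up to 3 called genes of smallest p per list and drug. CPM used TMM factors of all 12 samples, and TPM the deposited gene lengths. Likeness was ranked over protein-coding genes with at least 1 CPM on average. The genes and lists were chosen with earlier results of these data known. Alternatives were DESeq2 1.42.0, limma-voom (limma 3.58.1), RLE size factors, total counts only, other count filters, 1 fit of all groups, a replicate block and leaving out each sample. Replicates within groups differed by more than sampling noise (chi-square per degree of freedom 2.29 to 16.4). Intervals and limits for counts cover counting error only. Some genes of the lists are counted in the totals but not reported here by name.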

Additional observations from a re-analysis of the deposited data

How the results depend on the processing

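Changes of CASP4, RIPK1 and MLKL with vancomycin and of CASP8 with cisplatin kept their direction and their call under all 14 alternatives. CASP1 with vancomycin kept its direction and call under the 13 run on it. However, CASP1 passed the main count filter only through its vancomycin reads, so alternatives that keep this filter add no separate support for its rise. It dropped out where at least 10 counts were required in every sample. With vancomycin 4 to 6 of the 8 genes were called when a sample was left out, with cisplatin 1 to 2 and with iohexol 0 to 1. Scaling by total count only gave 1 called with iohexol and 5 with cisplatin, and leaving out Control-1 and Iohexol-3 together, an alternative chosen after seeing the data, gave 1 with iohexol (RIPK1, -0.30). All genes called with iohexol numbered 3283, 1849 to 4544 when a sample was left out (1849 without Control-2, 2111 without Iohexol-2), 5515 without Control-1 and Iohexol-3 together and 2096 with the replicate block. Same-numbered samples were no more alike than others, with a mean correlation of -0.02 over 18 pairs against 0.01 over 36 pairs of other numbers. These means cannot show whether samples were handled in pairs. The replicate block left 0, 1 and 6 of the 8 genes called with iohexol, cisplatin and vancomycin. Among changes of the 8 genes, signs turned only where the change was not called. Leaving out samples gave -0.15 to 0.21 for GSDMD, -0.11 to 0.23 for CASP9 and -0.0065 to 0.24 for CASP4 with iohexol, and -0.036 to 0.29 for GSDMD and -0.019 to 0.068 for RIPK1 with cisplatin, and GSDMD with iohexol was also -0.0089 with all genes of at least 1 count. On total counts, vancomycin against iohexol was -0.14 for CASP8, and vancomycin against cisplatin was -0.25 for GSDMD and -0.055 for CASP9. The cause of these shifts was not tested. Depth limits statements on CASP1 outside vancomycin, RIPK3, NLRP3, IL1B and ZBP1.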
